A study of Mus musculus with 8 samples.

Results

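Peaks of the transcription factors GLI1 and GLI2 were examined at the loci of 6 genes known as targets of Hedgehog signaling: Ptch1, Hhip, Mycn, Ccnd1, Foxa2 and Bcl2. The members were all peaks that overlapped a fixed mm9 window around each gene by at least 1 bp. There were 67 such peaks among the 173807 of the 4 deposited lists, and they made up 0.0406% of the autosomal peaks. The windows, of 104 to 276 kb, added up to 953 kb, or 0.0395% of the autosomal span that holds peaks. Both groups were undifferentiated F1-2.1 cells at day 0, a female mouse embryonic stem cell line that carried a Tet-on transactivator (rtTA). One group carried a GLI1-3xFLAG transgene and the other a GLI2-3xFLAG transgene, each under tetracycline response elements, so the factors were overexpressed and not measured at their own level. All cells had 72 hours of 1 µg/mL doxycycline, which turns the transgene on, and 100 nM SAG, a small molecule that activates Smoothened and with it the Hedgehog pathway. They were kept with LIF on irradiated mouse fibroblasts, which were settled away at harvest. Each factor had 2 anti-FLAG ChIP libraries, which the labels call biological replicates, with an input library for each. For both replicate 1 inputs the antibody field of the labels reads Anti-FLAG although the titles name them as input, and for the replicate 2 inputs it gives no antibody. The sources used here do not say whether each transgenic line was 1 clone.

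In the Hedgehog pathway the receptor Patched holds Smoothened in check until a Hedgehog ligand binds. Smoothened then acts on the GLI zinc-finger factors, which recognise a short C-rich sequence and switch target genes on. GLI1 is an activator and itself a target, whereas GLI2 can be processed into a repressor or act as the main early activator. Ptch1 and Hhip are targets that dampen the signal, Mycn, Ccnd1 and Bcl2 are targets linked to growth and survival, and Foxa2 is a target of the floor plate.

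The 4 lists held 42634 and 55741 GLI1 peaks and 26511 and 48921 GLI2 peaks in replicates 1 and 2. Cutoffs in the labels are 1e-4 for GLI1 and 1e-5 for GLI2, and their setting s is 50 in the first replicates and 20 in the second. Differences between factors and between replicates therefore cannot be told apart from differences in peak calling. Read depth is unknown, and cells without a FLAG transgene and the signal of the input libraries were not analysed here. Intervals below cover the counting of peaks only.

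The closest sequence data at hand were the RefSeq promoter windows of build GRCm38.p6, from 250 bases before to 50 after each start. Their coordinates cannot be set beside the mm9 peaks, so they show the letters near the starts and not the letters under a peak. Of the 6 genes, 5 had an entry, with 7 promoters in all, and Ccnd1 had none. The GLI consensus GACCACCCA was searched on both strands, exactly and with at most 1 letter replaced, together with the shorter core CCACCC, which the consensus contains. No promoter of the 6 genes held the exact consensus, which was in 0.253% of all 32851 promoters. One Foxa2 promoter of 7 held it with 1 letter replaced, as GACCTCCCA on the opposite strand, against 6.74% of all promoters. The core was in 4 of the 7, at Hhip, Mycn and 2 starts of Foxa2, against 31.5% of all promoters. A list of 32 other pathway genes includes Gli1, Gli2, Gli3, Smo and Sufu. Of the 32, 23 had an entry, with 25 promoters, and the rest were not searched. Which of the named genes had an entry is not given here. None of the 25 promoters held the consensus with up to 1 replacement, and 10 (40.0%) held the core. The promoters of Foxa2, which had the closest match, and of Ptch1, whose window held the region of most lists among the pathway's feedback genes, are shown 5′ to 3′ with matches in capitals. Both lie on the minus strand of GRCm38.p6, at chr2:148045415-148045714 and chr13:63565686-63565985.
Foxa2: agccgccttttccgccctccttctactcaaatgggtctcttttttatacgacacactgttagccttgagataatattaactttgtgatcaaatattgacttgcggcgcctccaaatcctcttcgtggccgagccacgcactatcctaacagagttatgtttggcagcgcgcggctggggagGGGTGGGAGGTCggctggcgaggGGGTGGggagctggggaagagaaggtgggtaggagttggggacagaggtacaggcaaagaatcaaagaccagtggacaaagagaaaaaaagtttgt
Ptch1: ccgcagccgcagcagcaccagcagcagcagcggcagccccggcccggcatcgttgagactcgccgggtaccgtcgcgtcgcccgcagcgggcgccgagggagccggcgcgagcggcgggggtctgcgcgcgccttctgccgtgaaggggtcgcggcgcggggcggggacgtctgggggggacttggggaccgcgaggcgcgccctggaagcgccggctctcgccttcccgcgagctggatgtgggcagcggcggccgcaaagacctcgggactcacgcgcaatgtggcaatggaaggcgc
The Ptch1 letters hold no capitals because neither form of the motif occurs in this window.

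**Figure D1:**
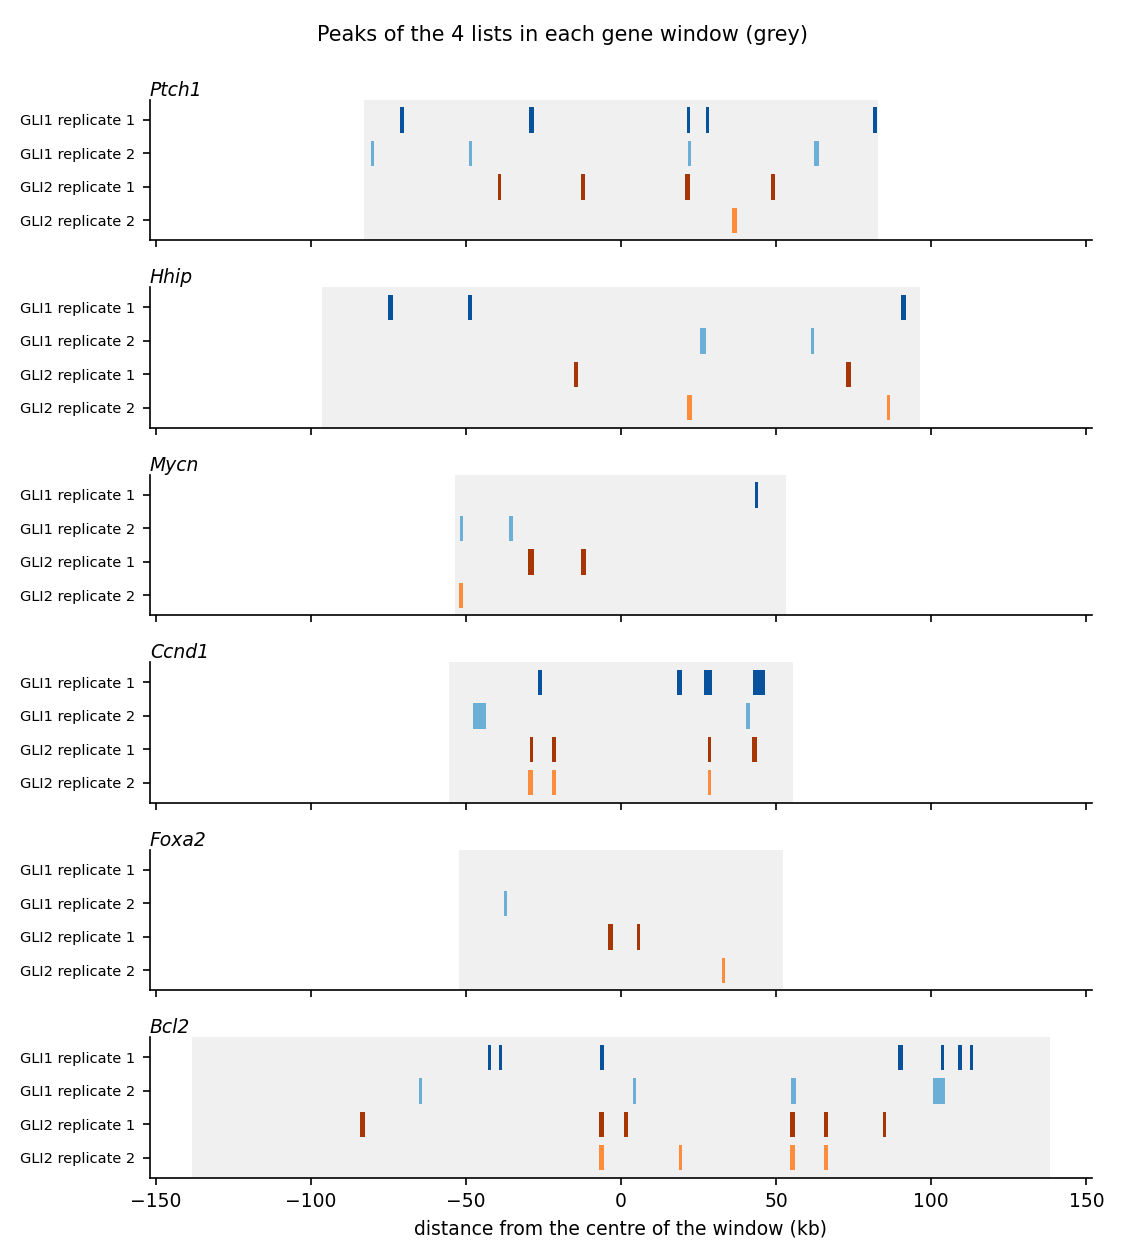
Peaks of the 4 lists (rows) in each window (grey), drawn to scale by distance from the centre of the window in kb. Peaks of both GLI2 replicates coincide 3 times in the Ccnd1 window and 3 times in the Bcl2 window, while those of both GLI1 replicates meet once at Ptch1 and once at Bcl2.

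Ptch1 encodes the Hedgehog receptor and is the best known target of the pathway. Its window (chromosome 13, 63560000 to 63725000) held 5 and 4 GLI1 peaks in replicates 1 and 2, and 4 and 1 GLI2 peaks. Counts of the 2 factors overlapped: GLI2 replicate 1 reached the level of GLI1, and GLI2 replicate 2 lay below all others. All autosomes were divided into non-overlapping tiles of the same width for comparison, 14618 for Ptch1. Among these tiles, 17.3% held at least 5 GLI1 replicate 1 peaks, 44.4% at least 4 GLI1 replicate 2 peaks, 11.7% at least 4 GLI2 replicate 1 peaks and 92.5% at least 1 GLI2 replicate 2 peak. Summed over the lists, the window had 14 peaks against a tile mean of 11.4, and 30.4% of tiles had as many or more.

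A single region of the Ptch1 window recurred, from 63663201 to 63665000, 103 kb into the window. It held a GLI1 peak of replicate 1 (63663801 to 63664800) and of replicate 2 (63664001 to 63665000), and a GLI2 peak of replicate 1 (63663201 to 63664800). The GLI2 peak had a deposited score of 71.6, higher than 86.4% of its list, and the GLI1 replicate 1 peak one of 47.1, higher than 50.7%. GLI2 replicate 2 had no peak there, and its nearest began 13.4 kb past the end of the region. A region with both GLI1 lists occurred in 42.2% of tiles of this width, and a region of any 2 or more lists in 78.0%. The GLI1 peak with the highest score in the window lay elsewhere, at 63613001 to 63614400, with a score of 52.5.

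Hhip encodes a membrane protein that binds Hedgehog ligands and limits their reach. Its window (chromosome 8, 82440000 to 82632000) held 3 and 2 GLI1 peaks and 2 GLI2 peaks in each replicate. Tiles of this width held as many peaks or more in 60.9 and 83.9% of cases for GLI1 and in 57.6 and 82.5% for GLI2. No peak of any list overlapped a peak of another, whereas 82.0% of tiles of this width held a region found in 2 or more lists. The 9 peaks of the 4 lists compared with a tile mean of 13.2, and 79.0% of tiles had as many or more. The nearest approach of the factors was between replicate 2 peaks, GLI2 at 82557401 to 82559000 and GLI1 at 82561601 to 82563400, with 2.6 kb between them. The highest GLI1 score in the window was 66.7, at 82460801 to 82462600, above 93.5% of its list. The highest GLI2 score was 62.7, at 82608401 to 82610000, above 69.4% of its list.

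Mycn, which encodes N-Myc, a driver of proliferation in neural progenitors, had 1 and 2 GLI1 peaks and 2 and 1 GLI2 peaks in its window (chromosome 12, 12893000 to 12999000). The groups overlapped fully, and tiles had as many peaks or more in 80.8 and 61.4% of cases for GLI1 and in 30.7 and 83.5% for GLI2. The 4 lists together had 6 peaks against a tile mean of 7.34, and 65.5% of tiles had as many or more. A single region, from 12893801 to 12895200 at the very start of the window, was found in 2 lists, those of replicate 2 of both factors. Tiles of this width held at least 1 region of any 2 or more lists in 64.5% of cases, and no region of the window recurred within a factor. The highest scores were 48.4 for GLI1 (12989201 to 12990200) and 63.8 for GLI2 (12933001 to 12934600), above 56.9% and 72.7% of their lists.

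Ccnd1, the gene of cyclin D1, which drives cells from G1 into S phase, had the highest peak number for its window width (chromosome 7, 152066000 to 152176000). GLI1 peaks numbered 4 and 2 and GLI2 peaks 4 and 3. All 4 lists had at least 2 peaks and the factors overlapped. Together they had 13 peaks, 1.71 times the tile mean of 7.61, and 11.6% of tiles had as many or more. In GLI2 replicate 1, 4.14% of tiles had at least 4 peaks, and neither neighbouring stretch of the same width held any peak of this list. The other lists gave 13.6% of tiles for 4 peaks in GLI1 replicate 1, 63.2% for 2 peaks in GLI1 replicate 2 and 35.7% for 3 peaks in GLI2 replicate 2.

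Every GLI2 replicate 2 peak of the Ccnd1 window overlapped a GLI2 replicate 1 peak. The first region ran from 152091001 to 152092600. The second, 152098801 to 152100000, and the GLI2 peaks of the third, 152149001 to 152150000, had the same bounds in both replicates. The third also held a GLI1 replicate 1 peak from 152147801 to 152150200, whose score of 58.1 was above 85.4% of its list and the highest GLI1 score in the window. Scores of the GLI2 replicate 1 peaks were 52.6, 64.7 and 57.9 in this order, above 18.9, 74.7 and 46.7% of the list. At least 3 regions with both GLI2 lists occurred in 1.28% of tiles of this width. This share and the 4.14% above are the lowest among the tile shares of all windows, and each threshold is the count that was seen. The tiles were not matched for gene content. Another region, from 152163401 to 152167400, was shared by the replicate 1 lists of both factors, with a GLI1 peak 3800 bp wide. No region of the Ccnd1 window held both GLI1 lists, and the GLI1 replicate 2 peak nearest to that shared region ended 0.8 kb before it.

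Foxa2, which encodes a forkhead factor of the floor plate and endoderm, had the fewest peaks. Its window (chromosome 2, 147818000 to 147922000) held 0 and 1 GLI1 peaks and 2 and 1 GLI2 peaks, so that both factors had 1 peak in replicate 2. GLI1 replicate 1 was the sole list with no peak in a window, and 80.4% of tiles of this width held at least 1 peak of that list. For the counts of the other lists the shares of tiles were 84.5% in GLI1 replicate 2, 30.1% in GLI2 replicate 1 and 83.1% in GLI2 replicate 2. The 4 peaks of all lists compared with a tile mean of 7.20, and 84.4% of tiles had as many or more. Tiles of chromosome 2 alone held fewer peaks than those of all autosomes. Their means in replicates 1 and 2 were 1.06 and 1.98 for GLI1, against 1.77 and 2.31 over all autosomes. For GLI2 they were 0.802 and 1.11, against 1.11 and 2.02. No peak overlapped one of another list, against 64.0% of tiles with a region found in 2 or more lists. The GLI2 replicate 1 peak from 147865801 to 147867600 had a score of 72.1, above 87.0% of its list. It lay near the centre of the window, and the list's other peak, 147875201 to 147876200, had a score of 54.5.

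Bcl2 encodes a protein that blocks apoptosis at mitochondria. Its window (chromosome 1, 108385000 to 108661000) is the widest and held 7 and 4 GLI1 peaks and 6 and 4 GLI2 peaks. For each factor replicate 1 was higher, and the factors overlapped. The total of 21 peaks was close to the tile median of 18, and 37.9% of tiles had as many or more. Peaks of replicate 1 were at or above these counts in 23.1% of tiles for GLI1 and 10.3% for GLI2, and those of replicate 2 in 73.0% and 70.4%.

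The Bcl2 window held 4 regions found in 2 or more lists, as many as the Ccnd1 window, while 34.2% of tiles of the Bcl2 width and 5.04% of tiles of the Ccnd1 width had at least 4. The region from 108515801 to 108517600 held a GLI2 peak with the same bounds in both replicates and a GLI1 replicate 1 peak inside it. Its GLI2 score of 78.8 was the highest GLI2 score among the 6 windows, above 93.5% of the list, whereas its GLI1 score of 45.8 was above 43.9%. The region from 108577601 to 108579400 held both GLI2 lists and GLI1 replicate 2, with a GLI2 score of 53.7, above 24.15% of the list. The next, from 108588401 to 108589600, held both GLI2 lists alone, and its GLI2 score of 50.4 was above 3.36% of the list, whose lowest score was 50.0. Both GLI1 lists met from 108623601 to 108627400, where the replicate 2 peak was 3800 bp wide and covered the whole replicate 1 peak. The score of that replicate 1 peak was 41.4, above 17.8% of its list. At least 3 regions with both GLI2 lists occurred in 10.0% of tiles and at least 1 with both GLI1 lists in 58.1%. The highest GLI1 replicate 1 score was 47.4, at 108612401 to 108614000.

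**Figure D2:**
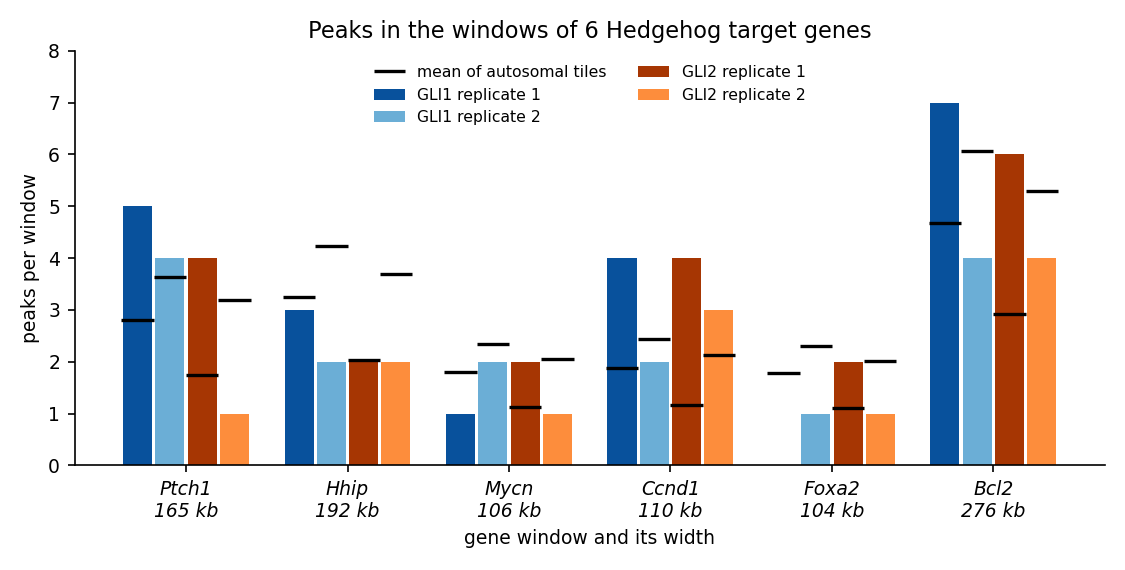
Number of peaks in each window (bars, 1 per list) with the mean of all autosomal tiles of the same width for that list (black lines). Both replicate 1 lists pass their tile mean at Ptch1, Ccnd1 and Bcl2, and GLI2 replicate 1 also does at Mycn and Foxa2. In replicate 2, GLI1 passes it at Ptch1 and GLI2 at Ccnd1. GLI1 replicate 1 has no peak at Foxa2.

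Over the 6 windows, GLI1 had 20 and 15 peaks in replicates 1 and 2, a mean of 17.5 ± 3.54 (SD, n = 2 lists). GLI2 had 20 and 12, a mean of 16 ± 5.66 (SD, n = 2 lists). These counts are not scaled to list length. The tile means, summed over the windows, were 16.2 and 21.0 for GLI1 and 10.1 and 18.4 for GLI2. The difference of 1.5 peaks was smaller than either SD (exact permutation test, two-sided, p = 1; with 2 lists per factor its smallest p is 0.333). It was 0 within replicate 1 and 3 within replicate 2. It turned to -6.5 when a minimum score of 50 was set for replicate 1 of both factors, which left 4 of the 20 GLI1 peaks and all 20 GLI2 peaks; in the whole lists that score kept 37.2% of GLI1 peaks and 100% of GLI2 peaks. Counts of the factors overlapped in each of the 6 windows. Tested window by window, the exact permutation p was 0.667 for Ptch1 and Foxa2 and 1 for the others, and 1 for all after adjustment over the 6.

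Set against the tiles, the lists divided by replicate number. Relative to the sum of the tile means, GLI1 had 1.24 times as many peaks in replicate 1 and 0.713 times in replicate 2. GLI2 had 1.98 times as many in replicate 1 and 0.653 times in replicate 2. The means were 0.974 ± 0.369 for GLI1 and 1.32 ± 0.938 for GLI2 (SD, n = 2), so that neither stood apart from 1 beyond its spread. Both replicate 1 lists were thus above their tiles and both replicate 2 lists below them, a split that is also that of the caller setting s. The stretches of the same widths on either side of the windows gave 18 and 20 peaks for GLI1 replicate 1, and 28 and 34 for GLI1 replicate 2. For GLI2 they gave 11 and 6 in replicate 1, and 19 and 16 in replicate 2. In both replicate 2 lists the windows held fewer peaks than either side, and in GLI2 replicate 1 they held more.

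**Figure D3:**
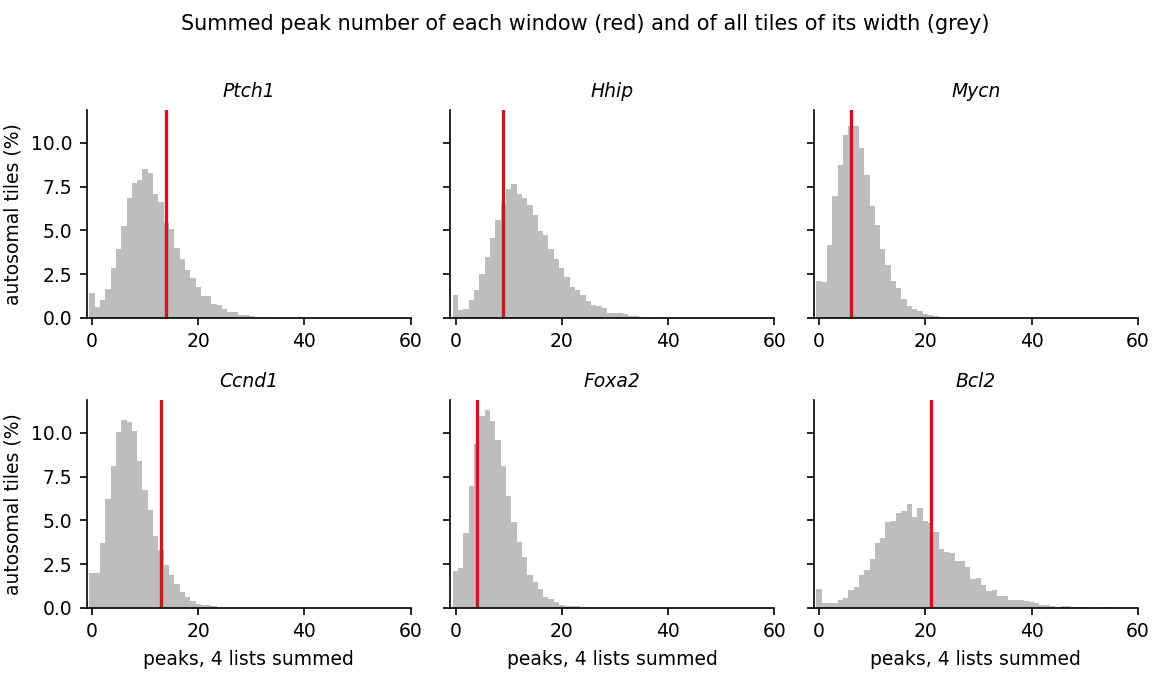
Distribution of the summed peak number of the 4 lists over all autosomal tiles of each window's width (grey bars, percent of tiles), with the value of the gene window (red line). Ccnd1, with 13 peaks, lies in the upper tail (11.6% of tiles at or above it), and Foxa2 and Hhip, with 4 and 9, lie below the middle.

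A smaller share of GLI1 than of GLI2 window peaks met a peak of the other replicate, a difference that was not tested. In GLI1 replicate 1 it was 2 of 20 peaks (10.0%, exact 95% interval 1.23 to 31.7), against 21.0% of all autosomal peaks of that list. In GLI1 replicate 2 it was 2 of 15 (13.3%, 1.66 to 40.5), against 16.2%. In GLI2 replicate 1 it was 6 of 20 (30.0%, 11.9 to 54.3), against 35.0%, and in GLI2 replicate 2 it was 6 of 12 (50.0%, 21.1 to 78.9), against 19.3%. The autosomal value lay inside the interval for 3 lists and just below it for GLI2 replicate 2. The intervals treat the peaks of a list as independent, which they are not, so this is no test of a difference. Since the same pairs of peaks are counted from both sides, the 2 values of a factor are not independent. All 6 GLI2 pairs lay at Ccnd1 and Bcl2, and no GLI2 peak recurred at Ptch1, Hhip, Mycn or Foxa2. Without the Bcl2 window, 27.3% of GLI2 peaks recurred, pooled over both replicates, in place of 37.5%. The pooled GLI1 share was 11.4%. Over all autosomal peaks of the lists as deposited, the pooled shares were 18.3% for GLI1 and 24.9% for GLI2. With windows widened by 50 kb on each side the pooled shares were 28.1% for GLI1 and 29.8% for GLI2. With a minimum score of 50 in replicate 1 they were 0 and 37.5%, and with lists of equal length 0 and 37.0%. The score minimum removed no GLI2 peak, so the GLI2 share could not change under it. Autosomal shares of the filtered or shortened lists are not given here. Of the 6 GLI2 pairs, 3 had identical bounds in both replicates, as had 18.4% of all recurrent autosomal GLI2 replicate 1 peaks.

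**Figure D4:**
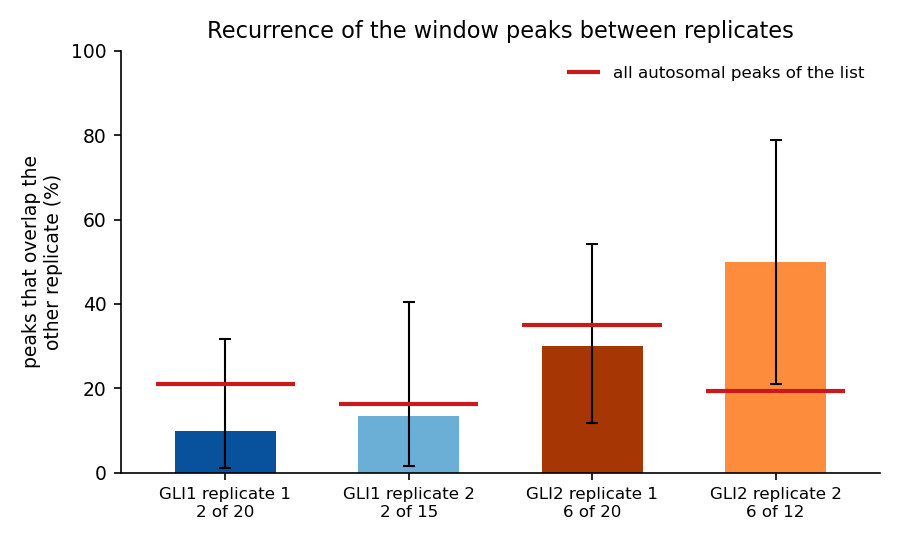
Percent of the window peaks of each list that overlap a peak of the other replicate of the factor (bars, with exact 95% intervals) and the same for all autosomal peaks of the list (red lines). The intervals of 3 lists include the red line, and that of GLI2 replicate 2 begins at 21.1%, above its line at 19.3%. The intervals treat the peaks of a list as independent, so they give no test of a difference.

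Merging the 4 lists left 53 regions in the windows, of which 10 (18.9%, exact 95% interval 9.44 to 32.0) held peaks of 2 or more lists, against 19.1% of autosomal regions. Of these, 4 held 3 lists, at Ptch1, Ccnd1 and 2 places of Bcl2, and none held all 4, as 0.437% of autosomal regions did. Both GLI1 lists met in 2 regions (3.77%) and both GLI2 lists in 6 (11.3%), against 6.35 and 6.61% over the autosomes. Regions in 3 or more lists were 7.55% of the window regions and 2.98% of autosomal ones. Peaks of both factors met in 6 regions (11.3%), against 9.57% over the autosomes. These were spread over Ptch1 (1), Mycn (1), Ccnd1 (2) and Bcl2 (2). Seen from single lists, 4 of 20 and 3 of 15 GLI1 peaks met a GLI2 peak, both 20.0%, against 15.4 and 16.5% over the autosomes. For GLI2 it was 5 of 20 (25.0%) and 4 of 12 (33.3%), against 21.2 and 21.3%.

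Scores could be read in replicate 1 only, since replicate 2 scores were 0 for 55722 of 55741 GLI1 and 48898 of 48921 GLI2 peaks. The score is the authors' value, and the sources used here name no unit for it. Window peaks had a median score of 46.0 for GLI1, from 40.6 to 66.7, against a list median of 46.9. For GLI2 the median was 58.6, from 50.4 to 78.8, against 58.8. Above the list median lay 9 of 20 GLI1 peaks and 10 of 20 GLI2 peaks. By window, GLI1 peaks above the list median were 2 of 5 at Ptch1, 2 of 3 at Hhip, 1 of 1 at Mycn, 3 of 4 at Ccnd1 and 1 of 7 at Bcl2. GLI2 peaks above it were 1 of 4 at Ptch1, 1 of 2 at Hhip, 2 of 2 at Mycn, 1 of 4 at Ccnd1, 1 of 2 at Foxa2 and 4 of 6 at Bcl2. The share was higher for GLI1 at Ptch1, Hhip and Ccnd1 and higher for GLI2 at Bcl2, and with 1 list per factor these differences have no replicate check. Peak widths ran from 1000 to 4000 bp, with medians of 1200 to 1300 bp in the 4 lists, against 1200 to 1400 bp for all their peaks.

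**Figure D5:**
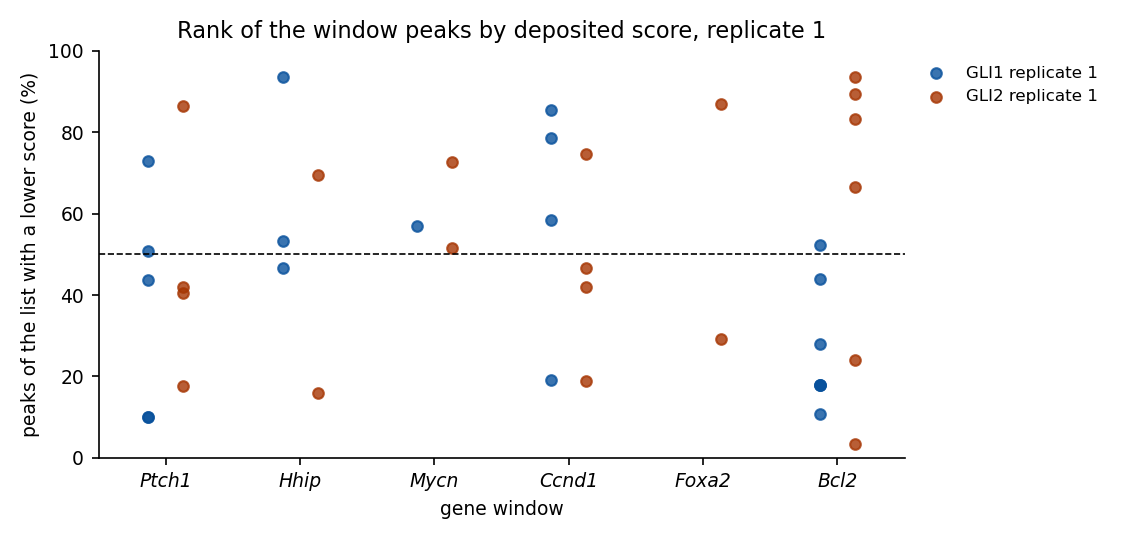
Rank of each replicate 1 window peak by deposited score, as the percent of its list with a lower score (dashed line at 50). The points of both factors spread over most of the scale: GLI1 peaks lie at 9.92 to 93.5% and GLI2 peaks at 3.36 to 93.5%.

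The windows have fixed ends, and some peaks lay close to them. A GLI1 replicate 1 peak ended on the last base of the Ptch1 window, with a score of 40.6. Just outside, a peak of the same list began 0.4 kb past the Hhip window, with a score of 40.2, and a GLI2 replicate 2 peak ended 0.6 kb before the Ptch1 window. Which of the peaks lie in the named genes, in other genes or between genes was not analysed here.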

How the data were processed

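Per the submitters' processing notes, CASAVA 1.7 and BWA were used, with mm9 as the build. The sources used here do not name the peak caller. Peaks were called for each ChIP library separately, per the labels, and each peak carries a deposited score of unknown unit. Replicate 2 scores were almost all 0 and were not used. Input libraries were not used.

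Peaks were counted in each window by overlap of at least 1 bp. All non-overlapping tiles of the same width, from the first to the last peak of each of 19 autosomes, gave the background in place of random windows. Regions are unions of overlapping peaks. Shares carry exact 95% intervals, and a two-sided exact permutation test over lists compared the factors. Counting was tested on simulated lists. Alternatives changed peak width, joining, overlap, score minimum, list length, windows, tiles and replicates. Regions found in 2 or more lists and the top-scoring replicate 1 peak per factor and window are named, beside others singled out after their values were seen. Members and lists were chosen with earlier results of these data known. A gene of the pathway list and the genes beside the windows are not reported here. Coordinates count from 1. Calculations used Python 3.11.15, numpy 2.4.6, pandas 2.3.3, scipy 1.17.1, statsmodels 0.14.6 and matplotlib 3.10.9.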

Additional observations from a re-analysis of the deposited data

How the results depend on the processing

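The GLI1 minus GLI2 difference of 1.5 peaks had no stable direction. It was -6.5 with a score of at least 50 in both replicate 1 lists, -4 with lists of equal length and -1.5 with windows narrowed by 50 kb on each side. Leaving out each replicate in turn gave -2.5 to 5.5. With the replicate number as a block it was 1.5 (exact permutation p = 1, where 2 pairs allow none below 0.5). Lists of the same number share the caller setting s, and no source says that they share a culture. With windows widened by 50 kb the difference was 8.5, with p = 0.333, the smallest that the exact permutation test allows. Peak numbers were not scaled to list length, and the GLI1 list was the longer one in each replicate. Relative to tiles, the widened windows gave 1.08 for GLI1 and 1.12 for GLI2. The GLI1 recurrence of 11.4% was 0% with the score minimum and with lists of equal length, which both shorten the lists. It was 5.71% with peaks set to 500 bp, 5.71% with a reciprocal overlap of 50%, and 28.1% with widened windows. Lists of equal length held 26511 peaks, the full length of GLI2 replicate 1. They left 12 and 7 GLI1 and 20 and 7 GLI2 window peaks. Replicate 2 scores were almost all 0, and how the peaks kept there were chosen is not described here. GLI2 recurrence ran from 27.3 to 42.9% over its alternatives. The 6 regions with both factors became 4 with peaks set to 500 bp, 3 with narrowed windows and 7 with widened windows. Without each replicate in turn there were 3 to 5. The ratio to tiles of GLI1 ranged from 0.687 to 1.24 over its alternatives, and that of GLI2 from 0.653 to 1.98. The 1.24, 0.653 and 1.98 are those of single lists, left when the other replicate is dropped. Recurrence without a replicate cannot be computed. The few peaks in each window limit what can be told apart.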

Other observations

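Several GLI1 replicate 1 peaks of the windows had the very same deposited score. At Bcl2, 3 of 7 peaks had 41.4, a value carried by 191 peaks of chromosome 1 in that list, and at Ptch1, 2 of 5 peaks had 40.6, carried by 244 peaks of chromosome 13. Other peaks named above were tied as well. The GLI1 score of 45.8 at Bcl2 was carried by 199 peaks of chromosome 1, and that of 52.5 at Ptch1 by 72 of chromosome 13. In GLI2 replicate 1, the score of 50.4 at Bcl2 was carried by 167 peaks of chromosome 1, and that of 62.7 at Hhip by 85 of chromosome 8. Some scores, such as the GLI2 score of 78.8 at Bcl2, were not tied on their chromosome. The ranks of tied peaks are shared with many others of the same chromosome.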
